A study of Mus musculus with 27 samples.

Results

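Trimethylation of lysine 4 of histone H3 (H3K4me3) marks the start sites of active and poised genes, and monomethylation of the same residue (H3K4me1) marks enhancers and the shoulders of promoters. Weak H3K4me3 is also found at strong enhancers, and CpG-rich promoters that carry the mark are as a rule low in DNA methylation. SHMT2, the mitochondrial serine hydroxymethyltransferase, passes a 1-carbon unit from serine to folate, and 1-carbon metabolism feeds the methyl donor S-adenosylmethionine. The regions described here are the H3K4me3 regions found with SHMT2 overexpression and not with the empty vector. They were chosen by peak presence: the autosomal H3K4me3 peaks of 5 libraries were joined where they overlapped, and a joined region was kept when it held a peak in all 3 SHMT2 libraries and in neither of the 2 vector libraries. This gave 790 of 38310 regions, or 2.06% of all regions, called SHMT2-only below. The converse pattern, a peak in both vector and in no SHMT2 library, was held by 53 regions, or 0.138%. The converse rule asks for fewer libraries with a peak and more without one, and the SHMT2 peak lists were longer, so these counts are descriptions.

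The SHMT2 group came from VavP-Bcl2 haematopoietic stem cells of the fetal liver at E13.5, a stage counted in embryonic days, infected with MSCV-SHMT2, a retroviral vector carrying SHMT2. The vector group came from VavP-Bcl2 stem cells of the same stage infected with the empty vector. Both groups thus carry the VavP-Bcl2 transgene, in which Bcl2, an inhibitor of apoptosis, is driven in blood cells, and both were transplanted into irradiated wild-type mice, whose spleens gave the B220-positive B cells of the tumours. The labels do not say whether B cells of the recipient remained among them, nor whether each library stands for an animal of its own. P-values therefore cover only the spread among the libraries, part of which may be technical. The ERRBS labels give the model, the B220-positive cells and the vector, without the transplant, and for SHMT2 replicates 2 and 3 a second label reads SHMT3 and SHMT4 where the titles, which were followed, read SHMT2. RNA-seq and ERRBS had 3 SHMT2 and 3 vector libraries, H3K4me1 ChIP-seq had 2 and 2, and H3K4me3 ChIP-seq had 3 and 2. The ChIP-seq libraries carry other replicate numbers than the RNA-seq and ERRBS libraries.

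The SHMT2 lists of H3K4me3 held 38249, 36633 and 34458 peaks, against 33806 and 33313 in the vector lists. The H3K4me1 lists held 48993 and 52056 peaks in SHMT2 and 37274 and 33119 in vector. Read totals of the ChIP-seq and RNA-seq libraries are not given in the sources used here, so their depth is unknown, and the mean coverage per cytosine in ERRBS was 63.0 to 71.6 calls. All 6 RNA libraries held B cell transcripts, with the B cell receptor chain Cd79b at 367, 448 and 452 TPM in SHMT2 and 357, 224 and 288 TPM in vector. Shmt2 was at 244, 345 and 259 TPM in SHMT2 and at 174, 223 and 157 TPM in vector. Vector RNA replicates 2 and 3 stood apart. The summed TPM of the 13 erythroid markers found of 16 (Hba-a1 was listed at 0 in every library) was 241 to 591 in the 3 SHMT2 libraries, against 273, 8807 and 1965 in vector replicates 1, 2 and 3. The summed TPM of 17 myeloid markers was 272 to 403 in SHMT2, against 194, 957 and 783 in vector. Markers of B cell stages differed as well. The sum of 12 germinal centre markers was 3834 to 5634 in SHMT2, against 5745, 1563 and 3329 in vector. That of 9 B cell progenitor markers was 98.2 to 141 in SHMT2, against 86.2, 362 and 333 in vector.

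Only a few SHMT2-only regions lay at promoters, and the bases under those promoters are shown first because the strongest region of the set sits there. RefSeq promoter windows (GRCm38.p6, the build also called mm10, from 250 bases before to 50 after a start site) overlapped SHMT2-only regions in 58 cases, from 52 genes. The windows below belong to the strongest region of all (Eps8l1), to regions beside a shared promoter peak (Mief1 and Tspan3), to the region with the largest positive methylation difference among those whose groups did not overlap (Scin) and to the tested gene with the most negative fold change (Septin8). Every CpG is in capitals, and each window is given in the direction of its gene.
Eps8l1, chr7:4460447-4460746, plus strand: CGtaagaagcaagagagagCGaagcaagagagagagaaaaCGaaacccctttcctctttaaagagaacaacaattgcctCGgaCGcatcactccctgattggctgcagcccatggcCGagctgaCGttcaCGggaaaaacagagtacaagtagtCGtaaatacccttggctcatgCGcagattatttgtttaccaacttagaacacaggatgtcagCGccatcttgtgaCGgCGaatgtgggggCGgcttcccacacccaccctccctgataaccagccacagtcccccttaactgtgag
Mief1, chr15:80233830-80234129, plus strand: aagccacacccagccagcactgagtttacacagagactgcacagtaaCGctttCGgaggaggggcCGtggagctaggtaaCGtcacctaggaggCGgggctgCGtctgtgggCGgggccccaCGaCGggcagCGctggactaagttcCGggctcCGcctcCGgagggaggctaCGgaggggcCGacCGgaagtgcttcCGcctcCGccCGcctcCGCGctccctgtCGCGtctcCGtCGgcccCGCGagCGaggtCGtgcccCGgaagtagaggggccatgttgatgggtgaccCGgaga
Tspan3, chr9:56161021-56161320, minus strand: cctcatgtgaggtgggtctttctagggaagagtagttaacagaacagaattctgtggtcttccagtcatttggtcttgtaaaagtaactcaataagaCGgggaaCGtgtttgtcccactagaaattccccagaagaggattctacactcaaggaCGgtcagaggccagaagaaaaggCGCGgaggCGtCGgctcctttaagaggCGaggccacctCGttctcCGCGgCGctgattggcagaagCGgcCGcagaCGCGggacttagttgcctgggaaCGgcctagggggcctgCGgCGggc
Scin, chr12:40134179-40134478, minus strand: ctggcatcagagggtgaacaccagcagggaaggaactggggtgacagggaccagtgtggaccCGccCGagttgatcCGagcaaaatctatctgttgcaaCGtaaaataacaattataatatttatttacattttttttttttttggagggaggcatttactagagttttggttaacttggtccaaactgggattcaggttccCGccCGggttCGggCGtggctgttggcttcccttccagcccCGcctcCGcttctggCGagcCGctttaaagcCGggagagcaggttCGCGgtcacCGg
Septin8, chr11:53519486-53519785, plus strand: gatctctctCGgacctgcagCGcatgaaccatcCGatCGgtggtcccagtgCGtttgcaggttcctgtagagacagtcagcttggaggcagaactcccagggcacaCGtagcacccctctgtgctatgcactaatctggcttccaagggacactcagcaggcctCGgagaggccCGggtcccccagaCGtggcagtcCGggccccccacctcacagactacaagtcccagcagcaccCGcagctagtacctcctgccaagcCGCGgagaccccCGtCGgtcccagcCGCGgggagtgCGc
These windows hold 14, 31, 19, 16 and 18 CpG in the order given. The median over the 58 windows was 21 CpG and a GC content of 64%, close to the 22 CpG and 61.7% of the 10187 windows under regions shared by all 5 libraries, and far from the 4 CpG and 50% of the 9146 windows under no H3K4me3 region. Of the 58 windows, 6 are alternative starts of 1 gene, Gm3512.

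Motif letters were counted on both strands of the same windows, and none of the motifs searched contains another. The GC box GGGCGG was in 60.3% of the 58 windows and in 47.0% of all 20085. The TATA box TATAAA was in 1 window (1.72%) and in 12.7% of all. The CCAAT box was in 34.5% and in 38.1% of all, the E-box CACGTG in 17.2% and 7.89% (5 of its 10 windows are those of Gm3512), the AP-1 motif TGANTCA in 5.17% and 7.06%, and the ETS motif GAGGAAGT in 1 window (1.72%) and in 3.18% of all. Windows under shared regions held the GC box in 66.8%, the TATA box in 6.23% and the E-box in 10.5%. Among the windows printed above, those of Eps8l1, Mief1 and Scin hold the GC box, and those of Eps8l1 and Tspan3 hold a CCAAT box. The SHMT2-only promoter windows were thus CpG-rich like those under shared regions, but the sets were not exclusive. A window counted with at least 1 base of overlap, so a window beside a shared region could count in both sets. The number of such windows was not determined, and the likeness may be partly built in. The Mief1 region, for example, ends at base 80233843, just inside a window that starts at 80233830.

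The location of the 790 regions differed from that of shared H3K4me3. Only 113 (14.3%) lay within 1 kb of either end of a protein-coding gene, and 677 (85.7%) lay beyond it, whereas 58.4% of the 23557 shared regions lay within 1 kb. The 1852 regions with a peak in all 3 SHMT2 and in 1 vector library resembled the SHMT2-only ones, with 16.8% within 1 kb. In all, 466 SHMT2-only regions (59.0%) lay inside a gene span, against 74.1% of the shared regions. They were narrow, with a median width of 518 bases against 1106 bases for shared regions. Regions with 1 vector peak had 60.3% inside a gene span and a median width of 605 bases. Regions in none of the named classes had 62.3% and 303 bases. The SHMT2-only regions lay between these 2 classes in width. The SHMT2-only regions were spread over all 19 autosomes, where they made up 1.53% (chromosome 5) to 2.64% (chromosome 9) of the H3K4me3 regions.

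Measured to the nearest shared H3K4me3 region, 157 SHMT2-only regions (19.9%) lay up to 1 kb away, 146 (18.5%) at 1 to 5 kb, 370 (46.8%) at 5 to 50 kb and 117 (14.8%) over 50 kb away, with a median of 9.48 kb. The median was 8.45 kb for regions with 1 vector peak and 6.34 kb for regions in none of the named classes. The regions at gene ends were most often right beside a shared region. Of the 113, 57 lay up to 1 kb from a shared region, 8 at 1 to 5 kb, 31 at 5 to 50 kb and 17 over 50 kb away. Of the 677 regions beyond 1 kb of a gene end, 100, 138, 339 and 100 lay in the same ranges. When peaks up to 500 bases apart were joined, 633 SHMT2-only regions were left, with 9.16% at gene ends.

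**Figure D1:**
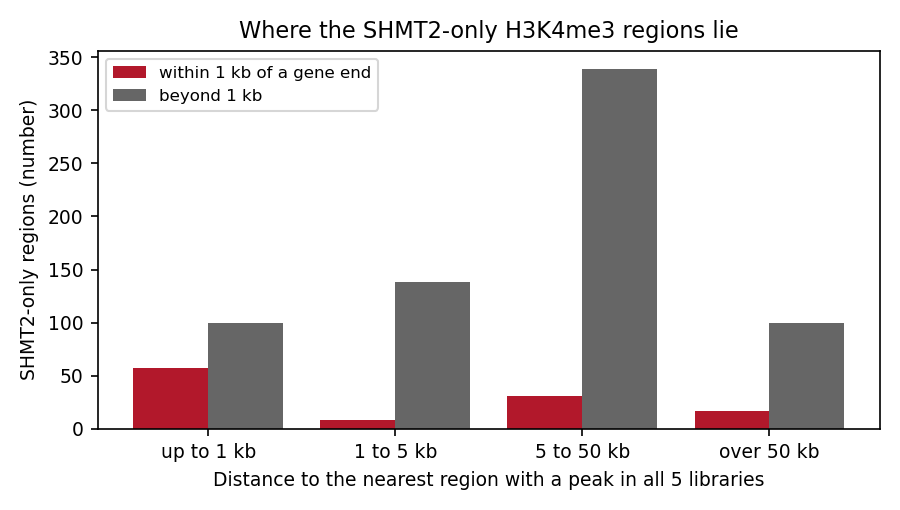
Number of SHMT2-only H3K4me3 regions (vertical axis) by distance to the nearest region with a peak in all 5 libraries, for the 113 regions within 1 kb of a protein-coding gene end (red) and the 677 beyond it (grey). The regions at gene ends are most numerous in the nearest range, with 57, and those beyond 1 kb at 5 to 50 kb, with 339.

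The SHMT2-only peaks were weak beside those of shared regions. Strength was read as the authors' own −log10 q-value of each peak, where q is the false discovery rate given by the peak caller, and as the authors' fold enrichment. The median −log10 q was 8.25, 7.83 and 5.15 in SHMT2 replicates 4, 5 and 6, which put the median region at percentiles 23.6, 19.7 and 10.8 of these libraries' own lists. Shared regions had medians of 93.3, 69.9 and 52.6 in the same libraries. Regions with 1 vector peak were also weak, with 11.9, 9.89 and 7.05. Regions in none of the named classes had 6.38, 6.34 and 5.15 where they held a peak. The median fold enrichment of SHMT2-only regions was 5.33, 5.13 and 5.27, against 23.5, 19.5 and 19.4 for shared regions. It was 6.42, 5.76 and 5.70 for regions with 1 vector peak. In the weakest of its 3 libraries a region ranged from 1.64 to 22.4, with 403 regions at 5 or more and 29 at 10 or more. The q-values come in steps, and 192 of the 790 regions had the same −log10 q of 5.15 in SHMT2 replicate 6.

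The edge of the rule lies among weak peaks. Inside it, 32 members had a −log10 q under 3 in their weakest library. Just outside it, the regions that also held a peak in 1 vector library had a median vector −log10 q of 6.39, and 45 of these 1852 vector peaks were under 3, the lowest at 1.55. A further 2029 regions had a peak in 2 of the 3 SHMT2 libraries and in neither vector library. Membership changed with the threshold: with the 30000 strongest peaks of each list there were 408 SHMT2-only and 101 vector-only regions, and 222 of the 790 overlapped one of the 408. With peaks of −log10 q of at least 10 there were 547 SHMT2-only regions, which only 29 of the 790 overlapped.

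**Figure D2:**
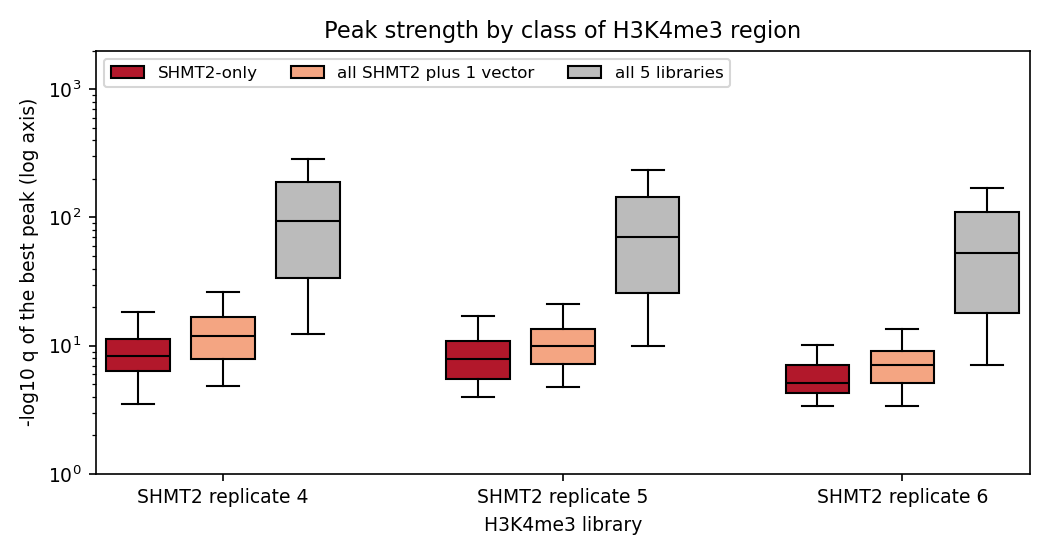
The authors' −log10 q of the best peak (log axis) in each SHMT2 H3K4me3 library for 790 SHMT2-only regions (red), 1852 regions that also had a peak in 1 vector library (orange) and 23557 regions with a peak in all 5 libraries (grey). Boxes span the quartiles with a line at the median, whiskers run from the 5th to the 95th percentile, and the SHMT2-only medians are 8.25, 7.83 and 5.15.

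The strongest SHMT2-only region by its weakest library lay at the 5′ end of Eps8l1, a relative of the actin regulator EPS8 (chr7:4460673-4461942). Its −log10 q was 91.8, 22.4 and 27.7 in SHMT2 replicates 4, 5 and 6, with fold enrichments of 25.1, 9.66 and 12.9. In SHMT2 replicate 4 it stood at percentile 67.7 of the list. It overlapped an H3K4me1 peak in SHMT2 replicate 4 only, and held no cytosine covered in all 6 ERRBS libraries. Eps8l1 had 5.95, 3.44 and 24.3 TPM in SHMT2 and 20.04, 24.99 and 15.3 TPM in vector, so the groups overlapped. The lowest RNA of the 6 libraries was in 2 SHMT2 libraries. The RNA libraries carry other replicate numbers than the H3K4me3 libraries, so mark and RNA cannot be matched library by library.

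The next regions at gene ends had a weakest −log10 q of 11.2 to 14.5. The region of Sct, which encodes the hormone secretin, lay 9215 bases from a shared region, and that of Lrrc4, a synaptic adhesion molecule, lay 331146 bases away. Sct had 0.1698, 0.0850 and 0.0802 TPM in SHMT2 and 0.0861, 0.0954 and 0.101 TPM in vector. Lrrc4, 554 bases away, was listed at 0 TPM in all 6 libraries, and its region lies inside the span of another gene, Snd1. The regions of Mief1, a mitochondrial outer membrane adaptor of fission, of the tetraspanin gene Tspan3, of Depdc7 and of Dctpp1, a pyrophosphatase that removes dCTP, lay 169, 102, 204 and 170 bases from a shared region, so each flanked a peak that all 5 libraries held. The region within 1 kb of an end of Pcdhga12, a clustered protocadherin, was one of few that were highly methylated, at 86.5%, 91.7% and 67.1% in SHMT2 and 88.6%, 56.8% and 60.4% in vector.

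The strongest regions beyond 1 kb of a gene end had a weakest −log10 q of 10.8 to 14.5. Of the 8, 4 lay inside the spans of their nearest genes: those in Tenm4, a teneurin adhesion protein, in Map3k5, the stress kinase ASK1, in Mllt3, a reader of acylated histones, and in Sim2, a developmental transcription factor. One lay 245959 bases from Satb1, which encodes a chromatin organiser of lymphocytes, and the others lay 3543 bases from Pop5, a subunit of ribonuclease P, 1605 bases from Nap1l1, a histone chaperone, and 3769 bases from Brwd1, a bromodomain protein. All 8 overlapped H3K4me1 peaks in both SHMT2 libraries, and 6 of them did so in both vector libraries. The nearest genes ranged from silent to abundant: Sim2 was listed at 0 TPM throughout, and Nap1l1 had 514, 498 and 527 TPM in SHMT2 and 458, 294 and 367 TPM in vector. The 790 regions had 744 distinct nearest genes. The gene with the most was Zbtb20, a zinc finger factor of plasma cells, with 4 regions and with 7.41, 10.2 and 9.02 TPM in SHMT2 against 17.0, 8.19 and 23.2 TPM in vector, and Map3k5, Rere and St7 had 3 regions each.

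Most SHMT2-only H3K4me3 regions sat on H3K4me1, a mark that the rule did not use. In the SHMT2 H3K4me1 lists 730 and 723 of the 790 regions (92.4% and 91.5%) overlapped a peak by at least 1 base, against 584 and 504 (73.9% and 63.8%) in the vector lists. The 95% exact Clopper-Pearson intervals were 90.3 to 94.2% and 89.4 to 93.4% in SHMT2 and 70.7 to 77.0% and 60.3 to 67.2% in vector, and cover counting error only. The SHMT2 H3K4me1 lists covered 112 and 116 Mb, against 76.3 and 62.0 Mb in vector. Shared regions showed the same order, at 94.0% and 93.3% in SHMT2 and 81.9% and 74.6% in vector. The mean difference was 23.1 points for SHMT2-only regions and 22.5 points for those that also had 1 vector H3K4me3 peak. Regions in none of the named classes had 20.3 points, shared regions 15.4 points and all 38310 regions 17.4 points. For SHMT2-only regions it was 12.1 points with the 30000 strongest H3K4me1 peaks of each list. With those peaks, SHMT2-only regions had 77.0% and 73.2% in SHMT2 and 64.9% and 61.0% in vector. The regions with 1 vector H3K4me3 peak had 75.6% and 72.4% against 64.1% and 61.3%, and shared regions 82.1% and 79.1% against 75.1% and 72.1%. With 2 libraries against 2 the smallest exact p is above 0.05, so no test of the mean difference was made.

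Counted by pattern, 469 SHMT2-only regions (59.4%) carried H3K4me1 in all 4 libraries and 41 in none. A peak in both SHMT2 and neither vector H3K4me1 library was found at 100 regions (12.7%), against 8.66% of all regions, and the opposite pattern at 0 of the 790 and at 3 of all regions. The regions with a peak in all 3 SHMT2 and 1 vector H3K4me3 library had 12.5% of this pattern, close to the share of the SHMT2-only set. H3K4me1 covered at least 50% of the region in 91.3% and 90.1% of SHMT2-only regions in the SHMT2 libraries and 68.6% and 59.0% in the vector libraries, whereas shared regions had 79.3% and 76.9% in SHMT2 and 55.5% and 45.1% in vector. The SHMT2-only regions, which were narrower, were more often covered by H3K4me1 in this way than shared regions in all 4 libraries, without a test. The regions with 1 vector H3K4me3 peak were close to them, with 88.4% and 85.8% in SHMT2 and 67.0% and 57.8% in vector. Regions in none of the named classes had 83.6% and 81.5% in SHMT2 and 64.9% and 57.5% in vector.

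Among the SHMT2-only regions, the overlap with H3K4me1 was lower at gene ends, most of all in the vector libraries. The same split was not made for the other classes, so whether it is particular to this set was not determined. Beyond 1 kb of a gene end, 93.5% and 92.8% of the 677 regions had H3K4me1 in SHMT2, against 78.4% and 66.9% in vector. At gene ends, 85.8% and 84.1% of the 113 regions did so in SHMT2, against 46.9% and 45.1% in vector. Among the 17 regions at gene ends that lay over 50 kb from shared H3K4me3, 10 and 13 had H3K4me1 in the SHMT2 libraries, against 1 and 6 in the vector libraries. The H3K4me1 and H3K4me3 peak names of SHMT2 replicates 4 and 5 and of vector replicate 4 carry the same code, of unstated meaning, in both marks, and the labels do not say whether the same cells gave both.

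**Figure D3:**
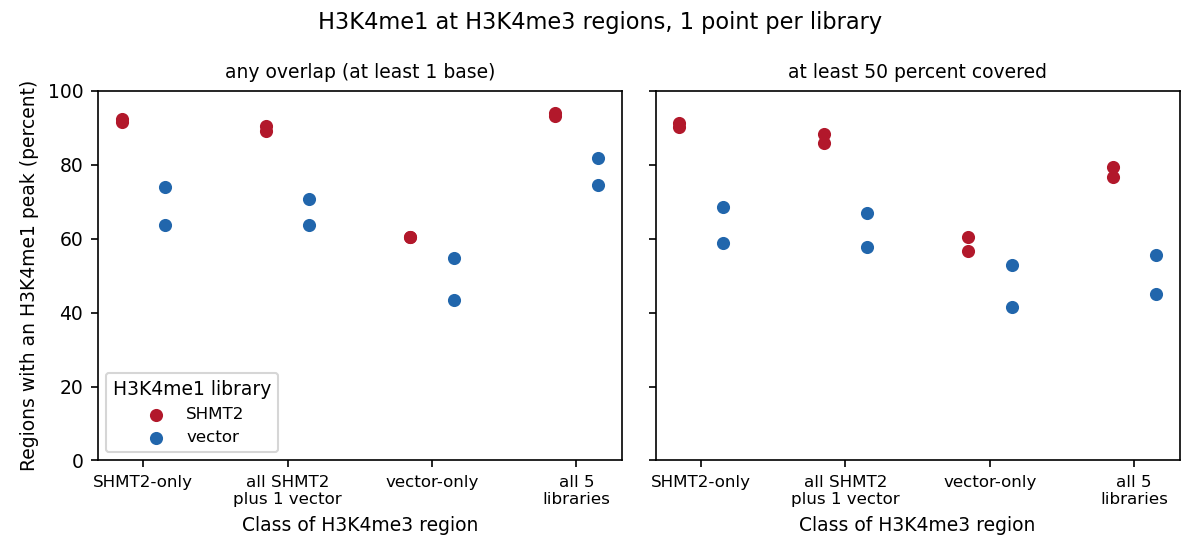
Share of H3K4me3 regions with an H3K4me1 peak (percent), 1 point per H3K4me1 library, SHMT2 in red and vector in blue, for an overlap of at least 1 base (left) and for at least 50 percent of the region covered (right). SHMT2-only regions have 92.4 and 91.5% in SHMT2 and 73.9 and 63.8% in vector, and every class has higher shares in the SHMT2 libraries.

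DNA methylation at the SHMT2-only regions was low to intermediate, and no region passed the test between the groups. ERRBS reads CpG-rich DNA, and 158 of the 790 regions held at least 3 cytosines covered by at least 10 calls in all 6 libraries, against 65.2% of the shared regions. The mean level over these 158 regions was 14.6%, 15.5% and 13.3% in the SHMT2 libraries and 13.6%, 13.1% and 14.4% in the vector libraries, so the groups overlapped. The group means were 14.5% ± 1.10 in SHMT2 and 13.7% ± 0.689 in vector (SD, n = 3 each), a difference of 0.77 points, or 0.26 points without SHMT2 replicate 2. Shared regions averaged 3.598% in SHMT2 and 3.49% in vector, and the regions with a peak in all 3 SHMT2 and 1 vector library averaged 15.01% in SHMT2 and 13.8% in vector, a level like that of the SHMT2-only regions. In all, 65 of the 158 regions were under 10% in every library and 6 were over 50% in every library.

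Of all 7234 H3K4me3 regions tested with a moderated binomial regression, 0 passed an adjusted p of 0.05 (0% called), 302 (4.17%) had an unadjusted p under 0.05, and the limma alternative also called 0. Among the 142 SHMT2-only regions tested, 5 had an unadjusted p under 0.05, 2 of them higher and 3 lower in SHMT2. Every SHMT2 library lay above every vector library at 7 of the 158 regions (4.43%), against 4.38% of all regions with a level, and below at 10 (6.33%), against 4.78%. Group means were at least 10 points apart at 17 regions (10.8%), against 2.8% of all regions, of which 81.2% were under 10% methylation in every library. Regions with 1 vector peak had 7.62% so far apart, and regions in none of the named classes 8.37%. The shares of regions without overlap were near those of all regions. In the same 2 classes, 6.63% and 6.74% of regions lay above and 3.44% and 2.42% below. The SHMT2-only share was thus lower above and higher below than in these classes, without a test.

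Regions at gene ends and regions beyond them differed in level. The 59 regions at gene ends averaged 8.42%, 11.04% and 6.86% in SHMT2 and 7.72%, 5.98% and 6.05% in vector, and 39 of the 59 had the higher mean in SHMT2, beside 135 of 196 at gene ends among regions with 1 vector peak and 6425 of 12747 among all regions at gene ends. SHMT2 replicate 2 was the highest library, and the group difference of 2.19 points was 1.06 points without it. The 99 regions beyond 1 kb averaged 18.3%, 18.2% and 17.2% in SHMT2 and 17.1%, 17.3% and 19.4% in vector, with 54 higher and 45 lower in SHMT2. The group difference there was −0.07 points. At gene ends, SHMT2-only regions averaged 8.77% in SHMT2 and 6.58% in vector, regions with 1 vector peak 9.88% and 7.87%, and regions of all classes together 2.78% and 2.47%. The level and the group difference at gene ends were thus like those of the regions with 1 vector peak, whose difference was 2.01 points.

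**Figure D4:**
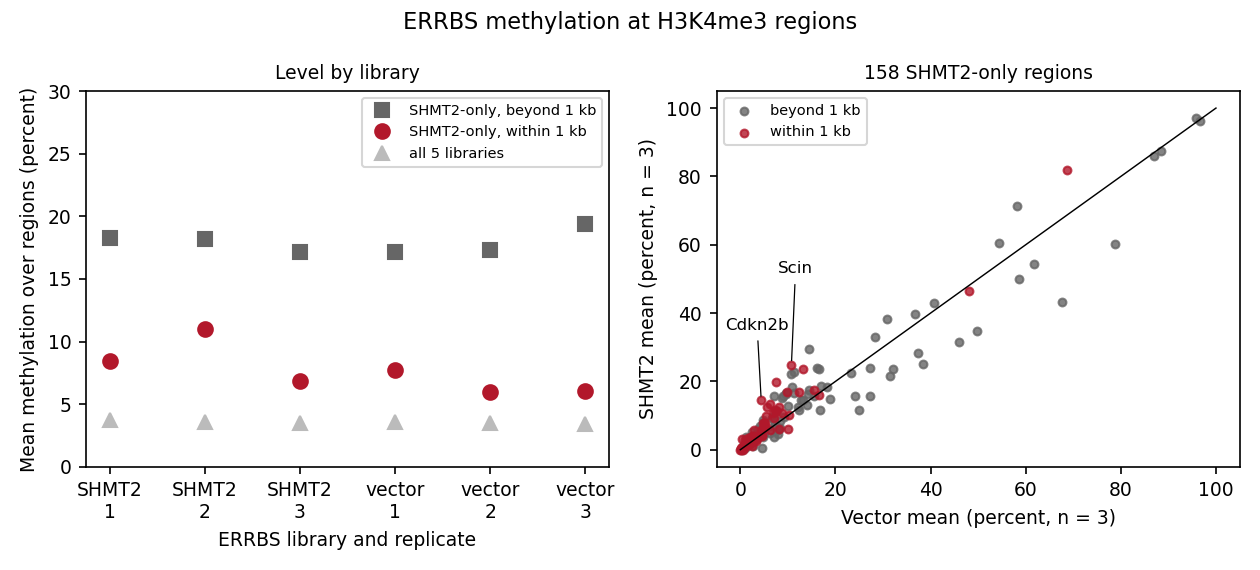
Left, mean ERRBS methylation (percent) in each library over 99 SHMT2-only regions beyond 1 kb of a gene end (grey squares), 59 within 1 kb (red circles) and the shared H3K4me3 regions (light triangles). Right, the mean of the 3 SHMT2 libraries (vertical axis) against that of the 3 vector libraries (horizontal axis) for each of the 158 SHMT2-only regions, with the line of equal levels. Most points lie near the line, and Scin and Cdkn2b lie above it.

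The largest higher difference among regions whose groups did not overlap lay at the 5′ end of Scin, which encodes the actin-severing protein scinderin (chr12:40134180-40134814, over the promoter printed above). Its 11 cytosines averaged 17.6%, 32.2% and 24.7% in SHMT2 and 12.2%, 11.5% and 8.54% in vector. The second, of 6 cytosines, lay inside Cdkn2b, the gene of the cell cycle inhibitor p15INK4b, 613 bases from its 3′ end (chr4:89306902-89307469), at 11.9%, 15.0% and 16.5% in SHMT2 and 6.58%, 4.00% and 2.61% in vector. The SHMT2 libraries lay above the vector libraries at both, with means of 24.8% ± 7.30 and 10.7% ± 1.94 at Scin and of 14.5% ± 2.30 and 4.40% ± 2.01 at Cdkn2b (SD, SHMT2 then vector, n = 3 each). The adjusted p of the moderated regression was 0.847 at both, and the exact permutation p was 0.1, the smallest that 3 against 3 allows. Summed over its cytosines, the library with the fewest calls had 574 at Scin and only 76 at Cdkn2b. Cdkn2b RNA was at 2.17, 1.59 and 1.71 TPM in SHMT2 and 2.35, 1.14 and 3.09 TPM in vector, and Scin RNA averaged 0.115 TPM in SHMT2 and 0.1096 TPM in vector.

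The largest lower differences lay beyond 1 kb of a gene end. A region 80762 bases from Spring1, outside the spans of protein-coding genes (chr5:118343876-118344559) had 41.2%, 37.5% and 50.9% in SHMT2 and 66.7%, 70.8% and 65.5% in vector over 3 cytosines. A region inside Lrrc2 (chr9:110965376-110966041) had 55.3%, 54.4% and 71.0% in SHMT2 and 71.9%, 80.3% and 84.2% in vector over 8 cytosines. The groups did not overlap at either, with an adjusted p of 0.847 from the same regression and an exact permutation p of 0.1. The library with the fewest calls had 48 near Spring1 and 298 in Lrrc2. The other 2 lower regions, 118930 bases from Sdk2 and inside Prss56, were highest in vector replicate 3, at 44.8% and 40.4%, and without it the differences were −3.61 and −5.11 points. The other 2 higher regions, at Pcm1 and inside Sim2, differed by 2.88 and 2.79 points, with as few as 35 and 126 calls in a library.

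Most genes with a SHMT2-only region at an end averaged under 1 TPM. An end within 1 kb was found for 115 protein-coding genes, 112 of them in the RNA tables. Of the 115, 74 had the region at the 5′ end and 16 at the 3′ end, and the strand of 25 was not in the promoter table. A mean of at least 1 TPM was reached by 42 of the 112 genes (37.5%), beside 53.3% of all protein-coding autosomal genes. It was reached by 83.7% of the genes with a shared region at an end and no SHMT2-only one. Of the genes with no H3K4me3 at an end, 12.7% reached it. Under 0.1 TPM were 39 of the 112 genes (34.8%), beside 36.2% of all, so such genes were about as common in the set. The 46 genes with a SHMT2-only and no shared region at an end were lower still. Of 45 in the RNA tables, 9 (20%) were at 1 TPM or more and 23 (51.1%) under 0.1 TPM. Most of these 46 genes thus had H3K4me3 at an end in the SHMT2 lists with little or no RNA in either group. In bulk samples, fewer cells of a type and less RNA per cell cannot be told apart.

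No gene passed limma's test on log2(TPM + 1) at an adjusted p under 0.05 among 11117 genes (0% called), while 1858 genes (16.7%) had an unadjusted p under 0.05. Leaving out vector replicate 1 gave 845 called genes. The 42 genes of the set split into 19 with a higher and 23 with a lower mean in SHMT2, with a median log2 fold change of −0.04 beside 0.02 over all genes tested. Of the 42, 8 had an unadjusted p under 0.05, 4 higher (9.52%) and 4 lower (9.52%) in SHMT2, beside 11.3% and 5.4% of all genes. All SHMT2 libraries lay above all vector libraries for 5 genes (11.9%) and below them for 7 (16.7%), against 16.9% and 8.26% of all genes tested. Split by shared H3K4me3, no test was made. Among the 33 genes that also had a shared region at an end, 17 had the higher and 16 the lower mean in SHMT2, and among the 9 with a SHMT2-only region alone, 2 were higher and 7 lower, with 4 of the 9 not overlapping and all 4 lower. Genes with no H3K4me3 region at an end also had more lower means, 347 higher and 624 lower, whereas all protein-coding genes had 5570 higher and 4776 lower. Without vector replicates 2 and 3, which leaves 1 vector library, 24 of the 42 were higher and 18 lower, and 3 of the 9 were higher and 6 lower.

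Among the genes with higher means, Dctpp1 had 4.87, 5.35 and 5.23 TPM in SHMT2 and 3.61, 2.57 and 2.81 TPM in vector. The groups did not overlap, and limma gave a log2 fold change of 0.63 (SE 0.14, adjusted p 0.204). Cd79a, a signalling chain of the B cell receptor and the only B lineage marker of 18 with a SHMT2-only region at an end, had 737, 774 and 770 TPM in SHMT2 and 655, 522 and 631 TPM in vector. Its region lay 950 bases from the 5′ end and 2 bases from a shared region, and limma gave a log2 fold change of 0.34 (SE 0.11, adjusted p 0.222). The B lineage markers together were at 13084 to 13212 summed TPM in SHMT2 and at 10381 to 13306 in vector, lowest in vector replicates 2 and 3, and their part in this result was not tested. Ecsit, a mitochondrial and Toll-pathway adaptor, Klhl8, a kelch protein, and Kctd1, a transcriptional repressor, also had groups that did not overlap, with log2 fold changes of 0.27, 0.32 and 0.42 (limma adjusted p 0.263 to 0.306). Abcd3, a peroxisomal transporter, Dbn1, the actin-binding protein drebrin, and Rap1gap2, which inactivates the small GTPase Rap, had log2 fold changes of 0.19, 0.35 and 0.45 with overlapping groups. That of Rap1gap2 was 0.24 without SHMT2 replicate 2, 0.66 without vector replicate 1 and 0.030 without vector replicates 2 and 3.

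Among the genes with lower means, Rasgrp4, a Ras activator of mast cells and other myeloid cells, had 4.34, 3.67 and 3.60 TPM in SHMT2 and 6.43, 4.50 and 5.45 TPM in vector. B4galnt2, a glycosyltransferase, had 1.01, 1.25 and 1.05 TPM in SHMT2 and 1.58, 1.82 and 2.57 TPM in vector. Mast4, a microtubule-associated kinase, had 7.35, 6.58 and 6.15 TPM in SHMT2 and 10.9, 7.78 and 7.94 TPM in vector. All 3 had SHMT2-only H3K4me3 and no shared region at an end, their groups did not overlap, and their log2 fold changes were −0.40, −0.49 and −0.35 (limma adjusted p 0.274, 0.258 and 0.322). Mief1, which also had a shared region at an end, had 102, 111 and 99.7 TPM in SHMT2 and 113, 122 and 127 TPM in vector, a log2 fold change of −0.21 (SE 0.08, limma adjusted p 0.291).

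Other lower means went with high values in vector replicates 2 or 3, the libraries with high erythroid and myeloid transcripts. Septin8, a cytoskeletal GTP-binding protein, had 1.89, 0.539 and 1.48 TPM in SHMT2 and 1.91, 43.7 and 6.14 TPM in vector, so vector replicate 1 lay at the level of SHMT2. Its region, over the promoter printed above, had a −log10 q of 32.3, 29.5 and 9.06 and overlapped H3K4me1 in both SHMT2 and in neither vector library. Slc46a2, a membrane transporter, had 0.492, 1.18 and 0.836 TPM in SHMT2 and 0.499, 2.87 and 6.78 TPM in vector. Pnpla2, the adipose triglyceride lipase, had 43.8, 47.6 and 48.7 TPM in SHMT2 and 49.0, 78.5 and 99.3 TPM in vector. Their log2 fold changes were −2.13, −0.97 and −0.63 with SEs of 0.97, 0.59 and 0.25 (limma adjusted p 0.335, 0.428 and 0.290), and without vector replicates 2 and 3 they were −0.39, 0.28 and −0.07. The part of erythroid and myeloid RNA in these 3 results was not tested.

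**Figure D5:**
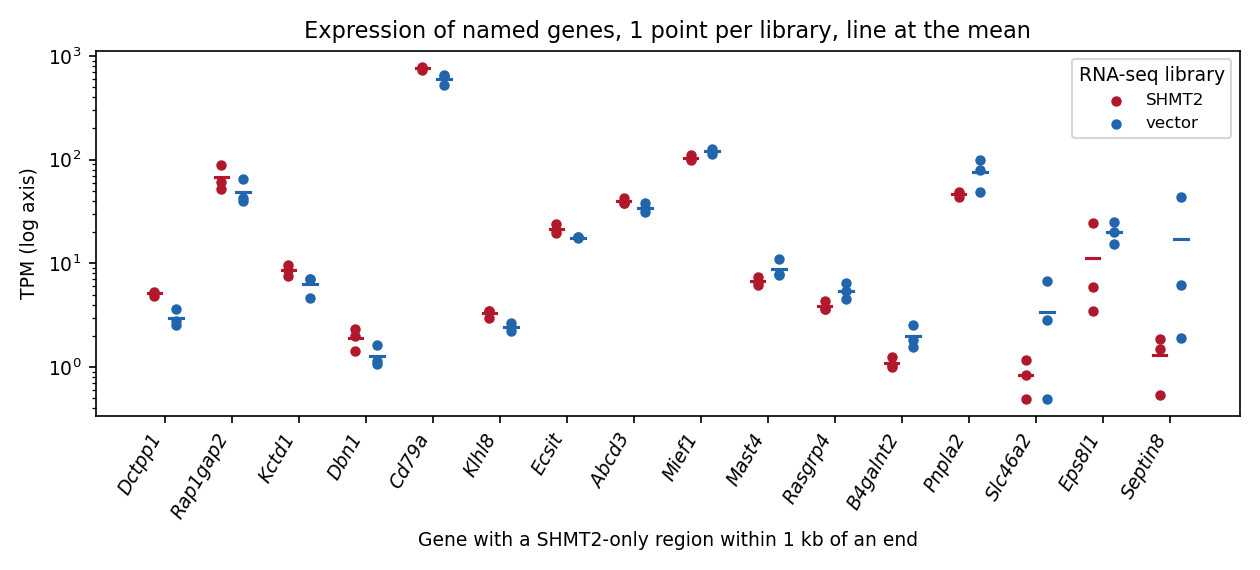
TPM (log axis) of the 16 named genes with a SHMT2-only region within 1 kb of an end, 1 point per RNA library and a line at the mean of 3, SHMT2 in red and vector in blue, ordered by log2 fold change. Dctpp1 has 4.87 to 5.35 TPM in SHMT2 and 2.57 to 3.61 in vector, and the vector points of Septin8 and Slc46a2 are spread most widely.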

How the data were processed

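TPM were deposited by the authors per library, with STAR and mm10 in the submitters' processing notes. The ChIP-seq peak lists, 1 per library, were made by the authors with BWA and MACS2 on mm10 per the same notes, and hold each peak's deposited score, fold enrichment (a ratio) and −log10 p- and q-values. The sources used here do not state an input control, and the 6 inputs were not analysed here. The deposited ERRBS tables hold, for each cytosine, a count of calls (its coverage) and the percent methylated, per the file headers, with Bismark, Bowtie2 and mm10 in the notes. Their protocol label describes PCR of single fragments.

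Peaks on autosomes were joined where they overlapped by at least 1 base. Gene ends were RefSeq spans (GRCm38.p6). Methylation per region used summed calls of cytosines covered by 10 or more calls in each of the 6 libraries, at least 3 per region and a mean level of 1 to 99 percent, in a binomial regression with overdispersion moderated over all regions, and a call also needed a difference of 10 points. Expression used limma 3.58.1 (R 4.3.3) on log2(TPM + 1) for genes averaging 1 TPM or more, which understates changes of low genes, and p-values were adjusted (Benjamini-Hochberg) over all of them. Both tests were tested on simulated data with changes of a set size. For methylation, the simulated spread was a set value and was not taken from the libraries. The simulated methylation changes were larger than the 10 points needed for a call, so smaller changes were not covered. For expression, the simulated spread of all 6 libraries was taken from the SHMT2 libraries, so the spread of the vector libraries was not covered. Python 3.11.15 was used for the rest. Named items were the 8 regions near and the 8 beyond a gene end with the highest weakest −log10 q, the 4 largest higher and lower methylation differences without overlap, the 8 higher and 8 lower genes by limma p, and the marker genes at a region, Cd79a, while Zbtb20, Map3k5, Rere, St7 and the promoters shown were picked after their values were seen. Members and lists were chosen with earlier results of these data known.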

Additional observations from a re-analysis of the deposited data

How the results depend on the processing

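The number of SHMT2-only regions was 790, and 408 with the 30000 strongest peaks of each list. Leaving out 1 library, with the rule applied to the rest, gave 1050 to 2268: 1050, 1242 and 2268 without SHMT2 replicates 4, 5 and 6, and 1379 and 2100 without vector replicates 4 and 6. The rule then asks for fewer libraries. The share at gene ends was 14.3%, and 9.16% with peaks up to 500 bases apart joined, 17.1% and 19.01% with a −log10 q of at least 5 and 10, 10.5% and 21.3% with ends within 500 and 2000 bases, and 14.4 to 15.7% without 1 library. The share within 5 kb of a shared region was 38.4%, and 25.1% with joined peaks, 28.3% with a −log10 q of at least 10, 28.7% with at least 50% of a region covered, 45.6% with a wider meaning of shared (1 SHMT2 and 1 vector library) and 40.9 to 43.5% without 1 library. These settings on the distance were chosen after seeing the data. The H3K4me1 difference of 23.1 points was 12.1 with the 30000 strongest peaks and 18.04 to 28.2 without 1 library. Calls in methylation stayed at 0 under every alternative run. For genes with a SHMT2-only region at an end, 0 were called, and 2 without vector replicate 1, Dctpp1 (log2 fold change 0.74, limma adjusted p 0.0360) and Pnpla2 (−0.91, limma adjusted p 0.0297), so 0 to 2 over single omissions. Their median log2 fold change was −0.04, 0 with no filter on low values, −0.066 to 0.019 without 1 library, and 0.0901 without vector replicates 2 and 3. That last setting turned Slc46a2 to 0.28. Over single omissions the mean methylation difference was 0.26 to 1.35 points. Deviations of same-numbered libraries from their group means had correlations of −0.42, −0.33 and −0.06 in expression and −0.11, −0.35 and 0.04 in methylation. Those of differently numbered libraries ran from −0.15 to 0.40 in expression and from −0.34 to 0.33 in methylation. With 3 libraries per group this check cannot tell whether same-numbered libraries share an origin, and the labels do not say. For ChIP-seq the check was not made. A replicate block left 0 calls in both fits. For H3K4me1 the difference within pairs equals that of the group means, 23.1 points, by construction.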
